A study of Mus musculus with 4 samples.

Results

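Mouse back skin that had received imiquimod cream followed by a lotion was compared with skin that had received the cream alone, by RNA sequencing of all 4 libraries of the study. The comparison set 3 lotion libraries against 1 library without lotion. Its members are the genes for which all 3 lotion libraries lay on the same side of the cream-only library: 8893 of 15068 genes tested (59%). Any 1 of 4 libraries lies outside the other 3 for a large share of genes, so the 59% does not measure an effect of lotion. All mice were male BALB/c animals, 8 to 9 weeks old. From day 1 to day 5 the back of each was covered once a day with 47 mg of 5% imiquimod (IMQ) cream, and back skin was taken on day 6. The library named IMQ had the cream only. The lotion libraries had, about 1 h after the cream, either a placebo lotion (IMQ+VEH, replicates 1 and 2) or the lotion with IDMF (IMQ+IDMF, 1 library). The series title names IDMF as isosorbide di-(methyl fumarate) and as a pro-drug that releases dimethyl fumarate. The contrast therefore asks what skin under the placebo and the IDMF lotion had in common that skin without a lotion did not. All 4 libraries come from imiquimod-treated skin, so nothing is set against untreated skin.

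Imiquimod activates Toll-like receptor 7 and gives mouse skin a scaly, thickened inflammation used as a model of psoriasis. In such skin, keratinocytes divide more and switch to a wound-type programme. They make stress keratins such as Krt6 and Krt16, small proline-rich proteins (Sprr) and late cornified envelope proteins (Lce), which are cross-linked into the cornified envelope, together with S100 proteins and defensins that act on microbes and immune cells. Back skin taken whole also holds sebaceous glands, hair follicles, dermal fat and, below the fat, a sheet of skeletal muscle.

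Among the genes that separated lotion-treated skin from cream-only skin were the Sprr2 genes, which lie side by side on chromosome 3. All 8 tested Sprr2 genes were lower in each lotion library than in IMQ, and 7 of them passed the test described below. The 250 bases before the start sites of the 4 with the largest changes among them are shown because these neighbours moved together. They are on the plus strand of GRCm38.p6, from RefSeq, at chr3:92351893-92352142 for Sprr2e, chr3:92364937-92365186 for Sprr2f, chr3:92407741-92407990 for Sprr2i and chr3:92432332-92432581 for Sprr2k. Capitals mark matches to TGANTCA, the form of site that AP-1 (Fos and Jun) proteins are known to bind, and to TATAAA, the core of a TATA box.
Sprr2e: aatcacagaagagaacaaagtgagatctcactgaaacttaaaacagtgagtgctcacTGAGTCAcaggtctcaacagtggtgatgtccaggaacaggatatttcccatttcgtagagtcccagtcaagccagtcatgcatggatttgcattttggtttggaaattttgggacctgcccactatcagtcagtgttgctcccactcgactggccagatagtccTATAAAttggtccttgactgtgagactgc
Sprr2f: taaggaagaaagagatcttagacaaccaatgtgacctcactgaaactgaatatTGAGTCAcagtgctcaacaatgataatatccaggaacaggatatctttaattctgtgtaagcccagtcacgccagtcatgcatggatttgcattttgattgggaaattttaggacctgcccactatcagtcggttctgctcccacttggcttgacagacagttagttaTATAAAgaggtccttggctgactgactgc
Sprr2i: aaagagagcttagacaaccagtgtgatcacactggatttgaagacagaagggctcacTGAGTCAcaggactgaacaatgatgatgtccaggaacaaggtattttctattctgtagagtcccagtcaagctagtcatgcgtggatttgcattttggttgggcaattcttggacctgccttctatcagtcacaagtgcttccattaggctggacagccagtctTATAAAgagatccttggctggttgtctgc
Sprr2k: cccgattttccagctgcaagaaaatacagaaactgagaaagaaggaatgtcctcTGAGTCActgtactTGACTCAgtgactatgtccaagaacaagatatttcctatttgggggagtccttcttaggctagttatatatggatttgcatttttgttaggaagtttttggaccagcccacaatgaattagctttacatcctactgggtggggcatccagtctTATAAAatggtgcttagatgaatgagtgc
Both motifs were searched on both strands, and in the Sprr2 promoters no 2 matches overlapped. Also searched were the E-box CACGTG, the NF-kB consensus, the STAT-type site TTCNNNGAA, the core TGACNNNGC of the antioxidant response element, the bZIP site TTANGTAA and the nuclear receptor core AGGTCA, and each of these stood in at most 1 of the 8 Sprr2 promoters. TGANTCA stood in 7 of the 8 Sprr2 promoters, with its first base 193 to 198 bases before the start, and Sprr2k held another match 182 bases before it. TATAAA stood 29 bases before the start in the same 7. Sprr2a3 had neither. Over all 27025 mouse promoters in the table, cut to the same 250 bases, 6.87% held TGANTCA and 13% held TATAAA. Among promoters of tested genes the shares were 5.08% and 7.62%. The printed Sprr2 promoters resemble each other over long stretches, so their matches are not independent of each other. None of the 6 Lce3 promoters held TGANTCA, although these genes were also lower with lotion. TGACNNNGC stood in 3 of the 6, CACGTG and TATAAA in 1 each, and the other motifs in 0. Among the 32 promoters found for genes lower with lotion, TGANTCA stood in 7. These were the 6 called Sprr2 genes other than Sprr2a3 and the predicted gene Gm5414 of the keratin cluster, the only one outside Sprr2. Among the 17 found for genes higher with lotion it stood in 0, which for so few promoters is near the 5.08% of tested genes. TGACNNNGC stood in 6 of the 32 and 4 of the 17, against 11.9% of tested genes. No difference between these sets was tested. A match is a run of letters and no measurement of binding.

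The libraries held between 21167149 (IMQ+VEH replicate 2) and 26639628 (IMQ+VEH replicate 1) counts. IMQ lay farther from every lotion library, at a root mean square difference of 0.68 to 0.76 in log2 CPM (counts scaled to library size), than the lotion libraries lay from each other, at 0.56 to 0.64. IMQ+VEH replicate 1 stood apart among the lotion libraries by its dermal genes: fibroblast and elastic matrix genes summed to 6986 CPM there, against 4540 in replicate 2, 3639 in IMQ+IDMF and 2759 in IMQ. The sequencing core gave IMQ+VEH replicate 2 a sample number far from the other 3, but no label says whether that marks a batch. The cream-only side is 1 library, so a trait of that animal, biopsy or library cannot be told apart from the absence of lotion. The labels call the libraries independent, but the p-values rest on the spread between these 3 lotion libraries, moderated by the spread over other genes. That spread includes any difference between the placebo and the IDMF lotion, and none of it comes from IMQ.

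By edgeR's quasi-likelihood test with Benjamini-Hochberg adjustment at 0.05, 20 genes were higher with lotion (0.133% of those tested) and 35 were lower (0.232%), and 1867 had an unadjusted p under 0.05. These are the called genes, and "rose" and "fell" are used below only of them. DESeq2 called 380 higher and 145 lower, so both the number and the balance of calls depended on the tool, while all 55 genes called by edgeR were among them. Without IMQ+VEH replicate 1, edgeR called 498 genes, 287 higher and 211 lower, with all 55 among them. Without replicate 2 it called 92 and lost Adcyap1r1, Alox8, Defb3, Gm5416, Gsdmc, Klk13, Mup15, Pparg and Timp4, and without IMQ+IDMF it called 100 and lost Csrp3, Gsdmc, Krt6a, Pparg and Sprr2a3. Of the 55, 31 (22 lower and 9 higher) were called under every one of 11 alternatives that tested them. All 3 lotion libraries lay above IMQ for 4354 genes (28.9%) and below it for 4539 (30.1%), and the median log2 fold change over all genes was 0.01. With total counts as library sizes these were 5264 above and 3589 below, and with the authors' FPKM 5574 and 3295, so small differences on either side depend on the scaling. By at least 1 log2 unit in every lotion library, 389 genes (2.58%) lay above IMQ and 165 (1.1%) below. By at least 3 log2 units it was 3 above and 13 below. The counts of list and family members on either side of IMQ given below can be set beside the 28.9% and 30.1% over all genes.

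**Figure D1:**
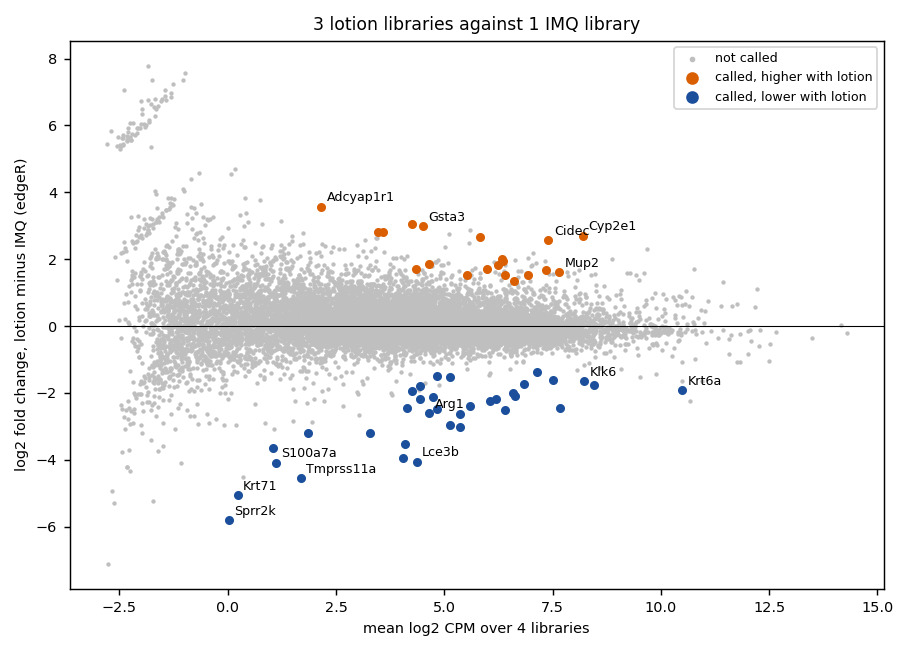
Each point is one of 15068 genes, with its mean log2 CPM over the 4 libraries on the x axis and the edgeR log2 fold change of lotion minus IMQ on the y axis. The 35 genes called lower reach a log2 fold change of -5.81 (Sprr2k), the 20 called higher reach 3.57 (Adcyap1r1), and the bands at upper left are mostly genes with a count of 0 or 1 in IMQ, whose fitted fold changes depend on the prior count.

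The genes that fell were led by proteins of the outermost epidermis. Sprr2k had 448 counts in IMQ and 9, 7 and 6 in IMQ+VEH replicates 1 and 2 and IMQ+IDMF, a log2 fold change of -5.81 (SE 0.37, adjusted p = 0.005501). Its counts with lotion are all under the filter's minimum of 10, so it entered the test through the IMQ library alone. It was named after its values were seen, because its mean level is under the limit of the naming rule. Sprr2f went from 3429 counts in IMQ to 248, 262 and 109 (log2 fold change -3.94, SE 0.39, adjusted p = 0.01642). Every lotion library was far below IMQ for both genes, and IMQ+IDMF was the lowest. Sprr2i had 4132 counts against 572, 527 and 380 (-2.95, SE 0.22), and Sprr2e had 7888 against 1574, 1195 and 1098 (-2.51, SE 0.16). Sprr2b, Sprr2a3 and Sprr2h fell by 2.45, 1.77 and 1.61. Sprr2d, the only Sprr2 gene not called, had 42087 counts in IMQ and 19343, 12073 and 9731 with lotion (-1.54, adjusted p = 0.09284). Summed over the 8 genes, IMQ had 4358 CPM and the lotion libraries 1395, 1206 and 982.4.

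The late cornified envelope genes divided by subfamily. All 6 Lce3 genes, which are known for their induction in psoriatic and wounded skin, fell. Lce3b had 4526 counts in IMQ and 414, 236 and 127 in the lotion libraries (-4.06, SE 0.39, adjusted p = 0.01565), and Lce3a had 2852 against 391, 187 and 130 (-3.54, SE 0.37, adjusted p = 0.01987). Lce3c to Lce3f fell by 2.18 to 2.62, and their highest count with lotion was 1405 (Lce3c, IMQ+VEH replicate 2), against 4234 to 5880 in IMQ. Per length, Lce3b stood at an FPKM of 344 in IMQ and 31.8, 22.8 and 11.5 with lotion. The 14 Lce1 genes, which belong to normal terminal differentiation, showed no such pattern. None had all lotion libraries on one side of IMQ, and their log2 fold changes ranged from -0.29 (Lce1b) to 0.39 (Lce1m). Their summed level was 5532 CPM in IMQ and 3264, 6588 and 4764 with lotion. The difference between the subfamilies was not tested.

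Of the 35 genes that fell, 15 lie on chromosome 3: the 7 Sprr2 genes, the 6 Lce3 genes, S100a7a and Lrat. Chromosome 3 held 772 of the 15031 tested genes with a position. The Sprr2 and Lce3 genes are clusters of related neighbours, so the 15 are not independent of each other. S100a7a, the mouse relative of psoriasin and koebnerisin, an alarmin that draws leukocytes, had 460 counts in IMQ and 21, 36 and 16 with lotion (-4.09, SE 0.48, adjusted p = 0.02986). Lrat, which esterifies retinol for storage, had 469 counts against 57, 47 and 39 (-3.19, SE 0.31, adjusted p = 0.01616). Lrat was at about the same level in every lotion library, while S100a7a differed among them by 1.20 log2 units.

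A search along the chromosomes for at least 5 neighbouring tested genes, each at least 0.5 log2 units on the same side of IMQ in every lotion library, found 5 runs. Of these, 3 were below IMQ. The first, chr3:92122204-92485881, held 12 genes from Prr9 over the Sprr2 and Sprr1 genes to Sprr1a, with a median log2 fold change of -2.36. It includes Sprr3, with 16 counts in IMQ and 4, 4 and 1 with lotion. Like Sprr2k, Sprr3 entered the test through the IMQ library alone. The second, chr3:92925287-92993426, was the Lce3 set with a median of -2.51. The third, chr16:36119946-36455392, held 8 genes of the stefin A cluster, with a median of -2.03. Stefins inhibit cysteine proteases in the cornifying cell. Stfa2 fell, from 7556 counts in IMQ to 2184, 1596 and 1227 (-2.08, SE 0.22), as did the predicted gene Gm5416 of the same run. Csta1 had 27335 counts against 11327, 11559 and 7998 (-1.29, adjusted p = 0.1442). Coordinates are GRCm38.

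**Figure D2:**
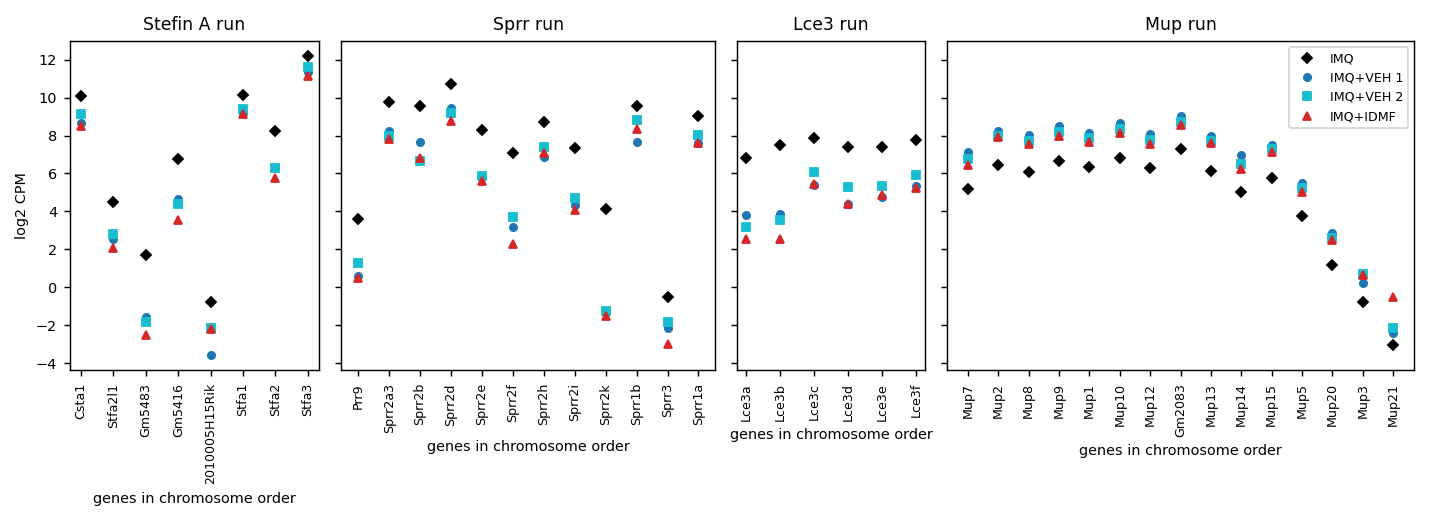
Log2 CPM of each gene in chromosome order, for the runs of neighbours at the stefin A, Sprr, Lce3 and Mup genes, with one symbol per library. IMQ (black diamonds) lies above all 3 lotion libraries in the first 3 panels and below them in the Mup panel, with the widest gap at Sprr2k.

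Such clusters hold near-copies, and the deposited counts may assign a read to a relative. Within the GENCODE M21 transcripts, 0% of the 50-base windows of Sprr2k and Sprr2h, 0.714% of those of Sprr2f and 10.2% of those of Sprr2e also occurred in another gene. The share was 12.1% for Lce3b and 19% for Lce3a, but 35.7% to 49.3% for Lce3c to Lce3f and 61.1% for Sprr2a3, so levels of single genes among these are uncertain. Krt6a shared 45.7% of its windows, mainly with Krt6b.

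Proteases of the upper epidermis and their inhibitors were the next group. Tmprss11a, a membrane serine protease of stratified epithelia, had 873 counts in IMQ and 56, 20 and 30 with lotion, 23.5-fold lower in the fit (log2 fold change -4.56, SE 0.35, adjusted p = 0.007609). Tmprss11b and Tmprss11g, its neighbours on chromosome 5, fell too, by 3.63 and 2.18. All 6 tested Tmprss11 genes lay below IMQ in every lotion library. The kallikreins Klk6 and Klk13, serine proteases that help shed corneocytes, fell by 1.64 and 2.00, and 9 of 10 Klk genes lay below IMQ throughout. Klk12 had 390 counts in IMQ and 127, 44 and 67 with lotion (-2.24, adjusted p = 0.09345). Wfdc12, a small protein with a protease inhibitor fold, fell by 1.94 on the log2 scale.

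Further genes that fell are on none of the lists. Pla2g4d, a phospholipase A2 of keratinocytes that is raised in psoriasis, had 1291 counts in IMQ and 149, 128 and 117 with lotion (-3.19, SE 0.21, adjusted p = 0.005501). Arg1, which splits arginine to ornithine, had 2475 against 376, 358 and 387 (-2.60, SE 0.20, adjusted p = 0.007609). In both genes the lotion libraries lie close together and far under IMQ. Alox8, a lipoxygenase of epidermis, Lpo, a lactoperoxidase, and Gadl1, a decarboxylase that makes beta-alanine, fell by 1.80, 2.14 and 1.52. Gsdmc, a gasdermin, fell by 1.38, the least of the genes that fell.

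Antimicrobial and acute phase genes moved less evenly. Defb3, a beta-defensin made by keratinocytes, had 5227 counts in IMQ and 1106, 425 and 370 with lotion (-3.01, SE 0.39, adjusted p = 0.04069). Saa3, a serum amyloid A made locally in inflamed tissue, had 1594 against 390, 218 and 228 (-2.44, SE 0.22, adjusted p = 0.01565). Of 24 antimicrobial and alarmin genes tested, 13 lay below IMQ in every lotion library and 4 above, 4 fell, and the median was -0.71. S100a8, a subunit of calprotectin, had 91242 counts in IMQ and 50533, 18079 and 16828 with lotion (-1.65, SE 0.46, adjusted p = 0.2258). All lotion libraries lay below IMQ, but IMQ+VEH replicate 1 lay nearer to it than to the others.

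Among keratins, Krt6a fell from 99674 counts to 34588, 18610 and 21881 (-1.92, SE 0.27, adjusted p = 0.04706), but it was not called under 4 of the 11 alternatives, among them leaving out IMQ+IDMF, and its adjusted p reached 0.186. Its partner Krt16 had 152125 counts in IMQ and 82262, 57716 and 63259 with lotion (-1.07, adjusted p = 0.2133). Krt17, another stress keratin, had 41163 counts against 42740, 37527 and 43113 (0.12, adjusted p = 0.909), with IMQ inside the range of the lotion libraries on the CPM scale. Krt10, of differentiating layers, was at 464425 counts in IMQ and 408682 to 463627 with lotion. On the log2 CPM scale its differences to IMQ were mixed, at -0.147, 0.186 and -0.002. In contrast, 12 of the 16 suprabasal genes lay below IMQ in every lotion library and 0 above, with a median of -0.45. Krt14, of the basal layer, was at 251380 counts against 127350, 95883 and 119288 (-1.03, adjusted p = 0.2695), whereas 5 of the 14 basal genes lay below and 2 above, with a median of -0.05. Krt71, a keratin of the inner root sheath of hair, fell from 452 counts to 8, 3 and 26 (-5.06, SE 0.72, adjusted p = 0.04993), and it too was named after its values were seen. Of 22 hair shaft and root sheath genes, 15 lay below IMQ throughout, and their summed level was 247.3 CPM in IMQ and 104.5, 145.7 and 141.8 with lotion. Melanocyte genes, 7 of 10 below, went the same way, with Tyrp1 at 361 counts against 45, 89 and 127 (-1.88, adjusted p = 0.2502). In bulk skin, fewer cells of a type and less RNA per cell cannot be told apart.

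**Figure D3:**
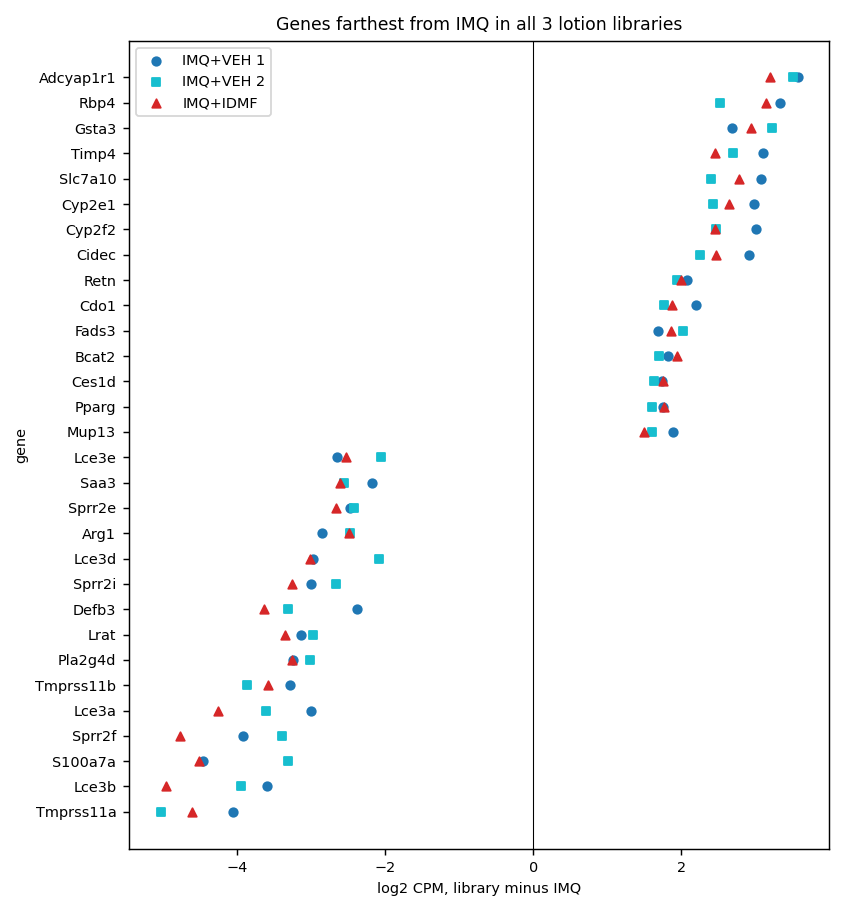
Difference in log2 CPM of each lotion library to IMQ for the 15 called genes farthest below and the 15 farthest above it by the naming rule, with one symbol per lotion library. The rule itself places all points of a gene on one side of 0. They range from about -5 at Tmprss11a to over 3 at Adcyap1r1, and the spread of the lotion libraries differs between genes, from 0.12 log2 units at Ces1d to 1.38 at Sprr2f.

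Of the 20 genes that rose, 3 belong to the adipocyte list (1 of them, Pparg, also to the sebaceous list), 1 to the fatty acid synthesis list and 11 to no list. Cidec, which coats lipid droplets in fat cells, had 1145 counts in IMQ and 9508, 4418 and 5588 with lotion, 5.94-fold higher in the fit (log2 fold change 2.57, SE 0.32, adjusted p = 0.0351). Retn, the adipocyte hormone resistin, had 724 against 3386, 2254 and 2551 (2.01, SE 0.19, adjusted p = 0.01565). Pparg, the master regulator of fat cells and also of sebocytes, had 211 against 788, 520 and 636 (1.71, SE 0.23, adjusted p = 0.04436). IMQ lay under every lotion library for all 3 genes. Rbp4, the carrier of retinol that fat also secretes, rose from 100 counts to 1134, 470 and 793 (3.06, SE 0.40), and Slc7a10, an amino acid transporter, from 71 to 680, 311 and 438 (2.81, SE 0.38). Cyp2e1, a cytochrome P450 that fat expresses, rose from 1851 to 16210, 8035 and 10199 (2.70, SE 0.31), and the related Cyp2f2 from 363 to 3230, 1634 and 1765 (2.67, SE 0.30).

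Enzymes of amino acid, ester and fatty acid handling were also among them. Bcat2, the first step of branched-chain amino acid breakdown, rose by 1.82, Ces1d, a carboxylesterase that acts as a lipase in fat, by 1.71, Cdo1, which oxidises cysteine, by 1.96, and Fads3, of the fatty acid desaturase family, by 1.87. Each had a lowest count with lotion over 2 times that of IMQ. Gsta3, a glutathione transferase, had 123 counts in IMQ and 886, 944 and 845 with lotion (2.99, SE 0.31, adjusted p = 0.01987). Timp4, an inhibitor of metalloproteinases, had 65 against 635, 350 and 323 (2.82, SE 0.38, adjusted p = 0.04333). Adcyap1r1, the receptor of the neuropeptide PACAP, had 17 against 248, 173 and 152 (3.57, SE 0.46, adjusted p = 0.03933). These 3 were low in IMQ alone, and the lotion libraries differed by 0.54 log2 units for Gsta3, 0.65 for Timp4 and 0.38 for Adcyap1r1. Csrp3, a muscle protein, Pdss1, of coenzyme Q synthesis, and Aebp1, a matrix protein, rose by 1.36, 1.53 and 1.53.

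The 22 tested adipocyte genes lay above IMQ in every lotion library except Cebpa, which was mixed, and 3 rose, with a list median of 1.75. Adipoq, adiponectin, had 1302 counts in IMQ and 6354, 3439 and 3297 with lotion (1.82, adjusted p = 0.06689), and Cfd, adipsin, had 6324 against 44407, 21068 and 24284 (2.31, adjusted p = 0.06504). Summed over the list, IMQ had 2722 CPM and the lotion libraries 8739, 6469 and 7337. Of 20 sebaceous gland genes, 18 lay above IMQ and 2 below, with a median of 1.07 and summed levels of 4107 CPM in IMQ and 7565, 8584 and 9223 with lotion. Dgat2l6, which makes sebum lipids, had 261 counts against 1020, 962 and 736 (1.91, adjusted p = 0.05325). Elovl3, which lengthens sebum fatty acids, had 3004 against 8039, 9319 and 8614 (1.67, adjusted p = 0.09479). The sebaceous list was highest in IMQ+IDMF and the adipocyte list in IMQ+VEH replicate 1, so the lotion libraries did not share an order.

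Other tissues of whole skin lay on the same side. Of 38 skeletal muscle genes 31 were above IMQ throughout, none below, with a median of 0.70, and their sum was 26000 CPM in IMQ and 47710, 34010 and 44870 with lotion. Schwann cell and nerve genes were above in 15 of 17, with a median of 1.24. Smooth muscle genes were above in 13 of 16, endothelial genes in 15 of 23 and fibroblast genes in 17 of 27, and for these 3 lists IMQ+VEH replicate 1 had the largest median difference. Col1a1, the main collagen of dermis, had 4497 counts in IMQ and 32253, 12140 and 9139 with lotion (2.02, adjusted p = 0.2382). IMQ had the lowest summed level of fat, nerve, muscle, vessel and matrix genes of the 4 libraries and the highest of stress keratins and Sprr genes, at 35260 CPM against 14160 to 16200. The part of these other tissues in the genes that rose or fell was not tested. With the muscle, adipocyte and hair lists left out before the fit, edgeR called 17 higher and 34 lower. Each of these 51 belonged to the 55, and the lost calls, Cidec, Krt71, Pparg and Retn, are members of the lists left out. Leaving genes out does not change the counts of the others, so this fit cannot show the part of tissue content.

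**Figure D4:**
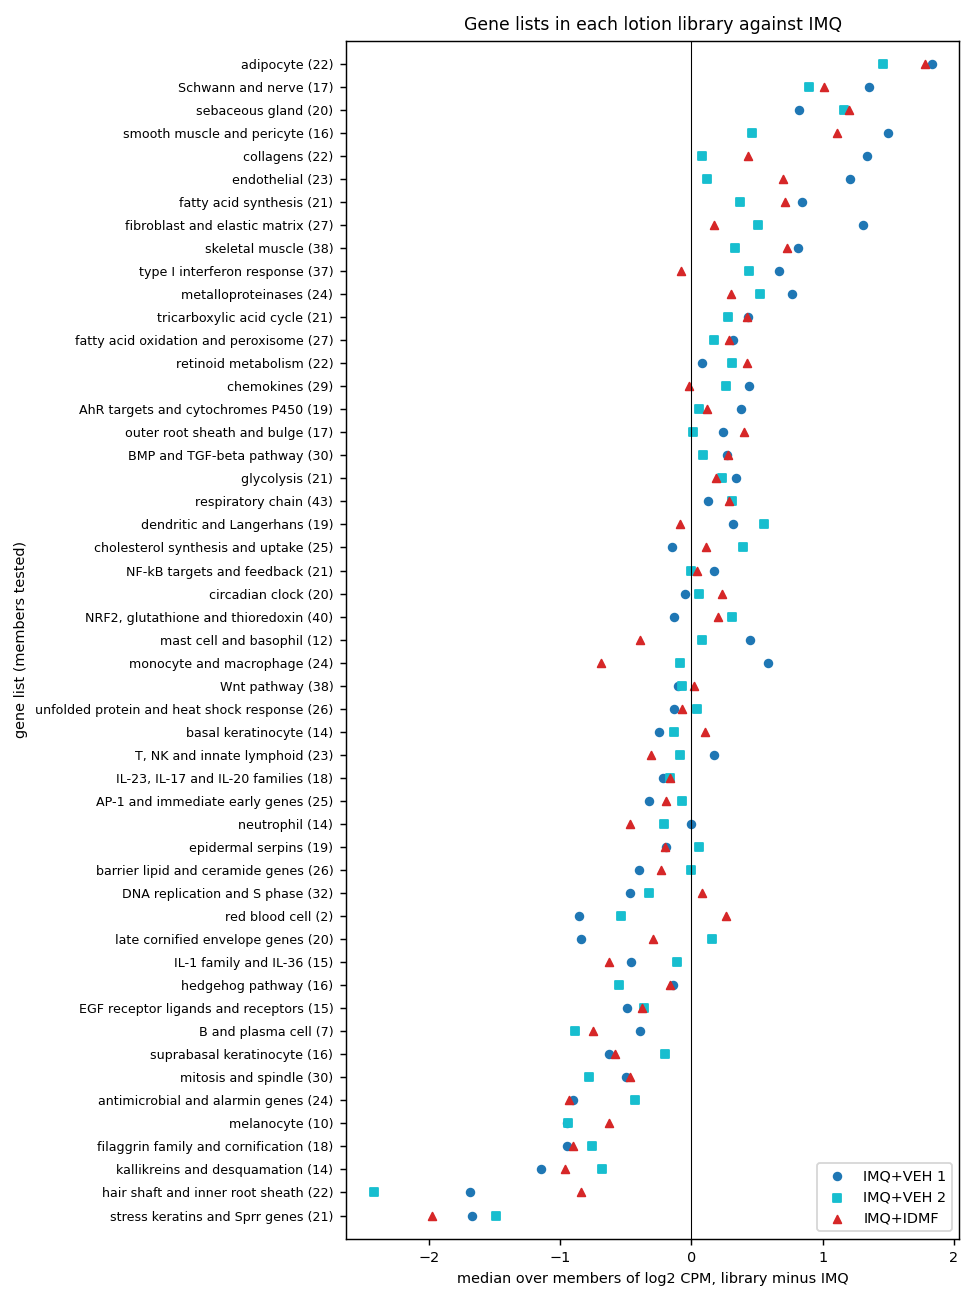
Median over the tested members of each of 51 gene lists of the difference in log2 CPM between a lotion library and IMQ, with the number of members in parentheses and one symbol per lotion library. Adipocyte genes lie highest, at 1.46 to 1.83, and stress keratins with Sprr genes (-1.49 to -1.98) and hair shaft genes (-0.84 to -2.42) lowest, while lists such as monocyte and macrophage spread from -0.69 to 0.58 among the lotion libraries.

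Most genes of the filaggrin, mitosis and EGF receptor lists lay below IMQ, and the lists in this paragraph held no call. The differentiation gene Lor was mixed, at differences of -0.54, 0.07 and -0.08 log2 units in IMQ+VEH replicates 1 and 2 and IMQ+IDMF. Of 18 filaggrin family and cornification genes, 15 were below in every lotion library, none above, and none passed the test, with a median of -0.85. Tchh, trichohyalin, had 568 counts against 88, 70 and 139 (-2.40, adjusted p = 0.07007), and Rptn, repetin, had 51065 against 22570, 16033 and 14550 (-1.43, adjusted p = 0.07233). Of 30 mitosis and spindle genes, 27 were below and none above, with a median of -0.53 and none called. Ccnb1, the cyclin that starts mitosis, had 1280 counts against 762, 478 and 597 (-0.97, adjusted p = 0.1091), and Mki67 had 4355 against 3265, 1501 and 2337 (-0.81, adjusted p = 0.2695). Of the 32 DNA replication genes 11 were below, 34.4% and so near the share over all genes, and 1 above, with a median difference of 0.08 in IMQ+IDMF. Ligands of the EGF receptor included Hbegf at 1115 counts against 642, 392 and 471 (-1.06, adjusted p = 0.09597), and 9 of 15 genes of that list lay below.

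Immune genes had no common direction across lists, but some lists leaned to one side. Of 15 IL-1 family and IL-36 genes, 9 lay below IMQ in every lotion library and 0 above, with a median of -0.29. Among these, Il1f6 had 9511 counts in IMQ and 6257, 5778 and 4435 with lotion (-0.68, adjusted p = 0.3019). Of 37 type I interferon response genes, 15 lay above and 2 below, with medians of 0.67, 0.44 and -0.08 in the single lotion libraries. Neither list held a call. Il17a had 36 counts in IMQ and 70, 8 and 12 with lotion, and Il17f had 38 and 106, 8 and 22, so IMQ lay between the lotion libraries for both. Il23a, a subunit of the cytokine that drives IL-17 cells, had 67 counts against 31, 18 and 25 (-1.35, adjusted p = 0.3825). Il1b had 245 against 28, 46 and 66 (-2.23, SE 0.54, adjusted p = 0.1807), lower in every lotion library without passing the test. Il20ra, a receptor chain for IL-20 cytokines, had 1001 against 388, 186 and 152 (-1.99, adjusted p = 0.07963). In contrast, Ccl20, which draws cells that bear CCR6, had 156 counts in IMQ and 432, 689 and 678 with lotion (2.10, SE 0.48, adjusted p = 0.1629). Monocyte and macrophage genes were split, 3 of 24 above and 3 below, and Tlr7, the receptor of imiquimod, had 86 counts against 240, 104 and 50. Nqo1, a target of NRF2, a pathway that fumarates are known to activate, had 734 counts in IMQ and 395, 930 and 966 with lotion, and of 40 NRF2, glutathione and thioredoxin genes 16 were above, 6 below and 1 (Gsta3) rose.

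No gene of the lists for energy metabolism passed the test. All 21 tricarboxylic acid cycle genes lay above IMQ in every lotion library, with a median of 0.38. Idh3b had 3026 counts against 4867, 3492 and 3878 (0.53, adjusted p = 0.2777). Of 43 respiratory chain genes 36 were above and none below, with a median of 0.24 (0.13, 0.31 and 0.29 in the single lotion libraries). Of 21 glycolysis genes 14 were above and 1 below, with a median of 0.25. Cox8b, a cytochrome oxidase subunit of muscle and brown fat, had 1162 counts against 1891, 1485 and 1848 (0.70, adjusted p = 0.2263). Skeletal muscle genes lay on the same side as these lists, as given above, and their part in these differences was not tested.

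Grouping all tested genes by the leading letters of their symbols gave 192 families of at least 10 genes, with no marker list involved. The families with the largest shares above IMQ were Mup (15 of 16), Ndufa (11 of 14), Cox (19 of 25), Gbp (8 of 11), Mmp (12 of 17) and Ndufb (7 of 10), the last with the same share as the sodium channel family Scn. Those with the largest shares below were Kdm (17 of 17), Sprr (11 of 12), Klk and Tmprss (9 of 10 each), Dhx (14 of 16) and Chd (7 of 10). The Sprr count includes Sprr2k and Sprr3, which entered the test through the IMQ library alone. Against the 28.9% above and 30.1% below over all genes the shares of the named families are high. They were picked from the 192 for their high shares, so this follows from the choice. Members of a family can also share reads, tissue and scaling, and no test was made.

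**Figure D5:**
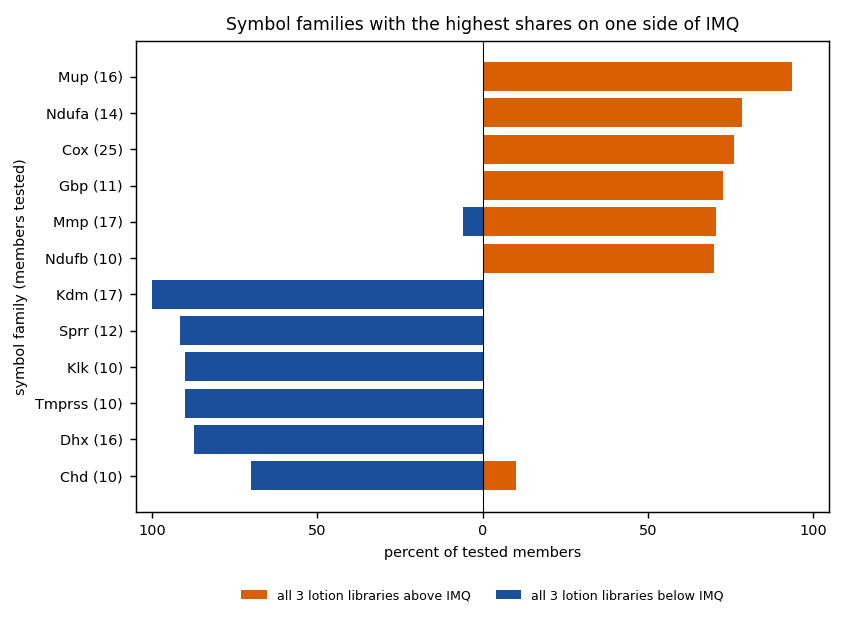
Bars show the percent of tested members of a symbol family with all 3 lotion libraries above IMQ (right) or below IMQ (left), with the number of members in parentheses. Mup reaches 93.8% above and Kdm 100% below.

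The Mup genes encode major urinary proteins, small carriers of odorants known mainly from liver and glands. Most of them, with the predicted gene Gm2083, form a run of 15 neighbours at chr4:60066469-62150841, all above IMQ, with a median log2 fold change of 1.58. Mup13 rose from 1753 counts to 7149, 4321 and 4361 (1.67, SE 0.23, adjusted p = 0.04459), and Mup2 and Mup15 rose by 1.62 and 1.54. Their transcripts are close to identical: 92.8% of the windows of Mup13, 78.2% of Mup2 and 100% of Mup15 occurred in other genes, so the calls cannot be assigned to single Mup genes. Summed over the 16 genes, IMQ had 737.3 CPM and the lotion libraries 2662, 2151 and 1906. The other run above IMQ, chr4:144555000-144786583, held 5 predicted genes with a median of 1.65 and no call.

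The Kdm family, lysine demethylases of histones, lay below IMQ for 17 of 17 genes, but by little: the median was -0.30 and the range ran from -0.70 (Kdm5b) to -0.04 (Kdm8). No Kdm gene was called. Kdm5b, a demethylase of histone H3 lysine 4, had 3671 counts in IMQ and 2671, 1816 and 1851 with lotion (-0.70, SE 0.16, adjusted p = 0.1701). With total counts as library sizes, or with the authors' FPKM, 14 of the 17 were still below. Of the RNA helicases named Dhx, Dhx34 fell, from 1558 counts to 651, 429 and 488 (-1.48, SE 0.17, adjusted p = 0.02986). It acts in nonsense-mediated decay of RNA. The other Dhx genes differed little, and under total-count scaling 10 of 16 were below. The mouse Gbp genes, interferon-induced guanylate-binding GTPases, had a median of 0.72, with Gbp11 at 116 counts against 583, 166 and 224 (1.51, adjusted p = 0.3506).

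The order of the lotion libraries differed from gene to gene. Of the 35 that fell, IMQ+IDMF was the lowest lotion library for 20, between the placebo libraries for 12 and the highest for 3. Of the 20 that rose, it was the lowest for 7, between for 9 and the highest for 4. Among the 165 genes below IMQ by at least 1 log2 unit throughout, it was the lowest for 69, between for 54 and the highest for 42, and among the 389 above by as much it was the lowest for 134, between for 174 and the highest for 81. The same order was not counted over all tested genes, so these numbers have no background share. The 35 include the related Sprr2 and Lce3 neighbours, which are not independent of each other. IMQ+IDMF is 1 library, so its difference from the placebo libraries was not tested here.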

How the data were processed

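RNA from back skin was read in single-end runs of 50 cycles, 1 library per sample. Each deposited table gives a raw count and an FPKM value (fragments scaled to transcript length and library size) for 20611 gene symbols, per the file headers. The tools named in the submitters' processing notes are TopHat2, Cufflinks and HTSeq, with GRCm38 and mm10 as builds. The sources used here give no versions, annotation or strand setting, and do not say how reads with several matches were counted. Filaggrin (Flg) was not analysed here.

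Counts were fitted in edgeR 4.0.16 (R 4.3.3) by the two-sided quasi-likelihood F test, with TMM and 1 mean for the 3 lotion libraries and 1 for IMQ. The filter (filterByExpr, a count minimum of 10 and a total of 15) left 15068 genes, and Benjamini-Hochberg adjustment ran over all of them, at 0.05. The fit had 2 residual and 5.2 prior degrees of freedom and a biological coefficient of variation of 21.1%, and the lone IMQ library was assumed to vary like the lotion libraries. A standard error (SE) is the size of the log2 fold change over the root of its F. Differences by library are in log2 CPM with a prior count of 2. A count of 3, taken as the floor, equals 0.107 to 0.146 CPM, for counting error only. The scripts were tested on simulated data.

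The members and the 51 gene lists were chosen with earlier results of these data known. Genes with a mean log2 CPM under 1, or with a predicted, Rik, antisense or pseudogene name, were not eligible for naming. Of the rest, the 15 farthest above and the 15 farthest below IMQ were named by their smallest difference, called genes first, with up to 3 per list, family and run, and fixed genes such as Krt16, Il17a and Nqo1. Further genes were chosen after their values were seen: each called gene, and members of families and clusters described as a whole. 1 gene picked by this rule is not reported here. Positions (GRCm38), for 15031 of the tested genes, and promoters are from RefSeq, and the transcripts searched for shared windows are from GENCODE M21. Alternatives were DESeq2 1.42.0, other library sizes, filters and prior counts (0.5 and 5), a robust fit, separate means for the lotions, the authors' FPKM (with 0.1 added), leaving out each lotion library, and leaving out tissue lists.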

Additional observations from a re-analysis of the deposited data

How the results depend on the processing

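The number of genes called was 55 and depended on the fit. It was 525 with DESeq2 (380 higher and 145 lower), 33 with total counts as library sizes (10 and 23), 144 without a filter (75 and 69), 38 with a mean count of at least 50 (13 and 25), 92 with a robust fit (42 and 50) and 106 with separate means for the lotions (49 and 57). Leaving out 1 lotion library at a time gave 92 to 498 calls, 51 to 287 higher and 37 to 211 lower, the most without IMQ+VEH replicate 1. Which genes each fit lost is given above for the left-out libraries. Total counts lost 22 of the 55, the mean count of 50 lost 17, separate means lost Krt6a and Mup2, and the robust fit lost Defb3. The cause was not tested.

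Genes at least 1 log2 unit above IMQ in all lotion libraries were 389, 232 with a mean count of at least 50, and 469 to 729 with 1 lotion library left out. Those at least 1 unit below were 165, 271 without a filter, 85 with a mean count of at least 50, and 228 to 305 with 1 library left out. Counts over fewer genes, or over 2 lotion libraries in place of 3, differ by construction. Families with at least 70% of members on one side were 13, and 19 to 25 with 1 library left out, and runs of neighbours were 5, and 5 to 10. Total-count scaling moved the median log2 fold change of all genes by 0.07.

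Over 197 named genes, 6 values changed sign and no called gene did. Without IMQ+VEH replicate 1, without replicate 2 and without IMQ+IDMF, Il17a ranged from -1.60 to 0.11 (0.07 without IMQ+IDMF), Il17f from -1.11 to 0.68, Nqo1 from -0.02 to 0.62 and Krt10 from -0.07 to 0.10, and Il17f was at -0.05 with separate means. List medians below 0 were 21 to 26 of 51 over all settings, against 24. No paired analysis was possible because only IMQ+VEH has more than 1 replicate, so the groups share fewer than 2 replicate numbers. With 1 cream-only library, its own spread could not be measured at any depth.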

Other observations

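Genes of signalling between skin layers were mixed, and none of those named in this paragraph passed the test (edgeR, adjusted over all genes). Among 38 Wnt pathway genes, 8 lay above IMQ in every lotion library and 11 below. Wnt16, a ligand made by keratinocytes, had 293 counts in IMQ and 76, 40 and 51 with lotion (log2 fold change -2.31, adjusted p = 0.0587), and Wnt5a had 519 against 326, 145 and 151 (-1.26, adjusted p = 0.2217). Hedgehog genes lay below for 8 of 16, with Gli1, a direct readout of the pathway, at 699 counts against 244, 117 and 520, so that IMQ+IDMF was nearest to IMQ. Of 30 BMP and TGF-beta genes 14 were above and 4 below, with Tgfbr2, a receptor, at 1565 counts against 4313, 2325 and 2268 (0.99, adjusted p = 0.2151). Fibroblast and elastic matrix genes summed to 2759 CPM in IMQ and 6986, 4540 and 3639 CPM with lotion, the same order of libraries as for Tgfbr2, and their part in it was not tested.

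Retinoid genes held calls in both directions: Rbp4, the blood carrier of retinol, rose and Lrat, the storage enzyme, fell, while the 22 tested genes were 11 above and 6 below. Aldh1a1, which makes retinoic acid, had 778 counts in IMQ and 1758, 1127 and 1302 with lotion (0.94, adjusted p = 0.1159), and Cyp26b1, which breaks it down, had 429 against 853, 588 and 592 (0.75, adjusted p = 0.2286). Neither passed the test. Of 19 epidermal serpins, inhibitors of proteases, 7 were above and 8 below. Serpinb11 had 3479 counts against 1455, 1262 and 968 (-1.39, SE 0.21, adjusted p = 0.05507). Clock genes were 10 of 20 above, and Dbp, a clock output, had 471 counts in IMQ and 894, 585 and 1247 with lotion (1.06, adjusted p = 0.3438). The clock list's median of 0.13 turned to -0.02 without IMQ+IDMF.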
